A study of Homo sapiens with 4 samples.

Results

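The 30 genes described here encode subunits of the SWI/SNF chromatin remodeling complex, and the data are the sites at which a tagged form of the complex's own ATPase was found on chromatin. The genes were taken from a fixed list of subunits, out of 20163 protein-coding genes in the annotation. SMARCA4, the gene of BRG1 itself, was left out because the transgene carries its coding sequence. A peak belonged to a gene when it overlapped the gene body or the 5 kb on each side, and 91 peaks in all did so at the 30 genes.

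SWI/SNF complexes use the energy of ATP to slide or evict nucleosomes and so open promoters and enhancers. A single ATPase, BRG1 or BRM, is joined by core subunits and then by further subunits that define canonical BAF, PBAF or ncBAF. The helicase/SANT-associated (HSA) domain of the ATPase is the platform for the actin-related module, which includes ACTL6A and β-actin, and the study also concerned the BCL7 proteins that bind it. Subunits of the complex are often found mutated in cancer.

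Both groups were clones of SW-13, a human adrenocortical carcinoma line in which the genes of BRG1 and BRM are silenced epigenetically. One group (iBRG1, 2 replicates) expressed full-length BRG1 and the other (i∆HSA, 2 replicates) expressed BRG1 without its HSA domain. In each, a construct with a C-terminal V5 tag was integrated by Sleeping Beauty transposition, selected with G418 and switched on with doxycycline for 24 h, and data came from individual clones grown from single cells, so construct and clone cannot be told apart. CUT&RUN was carried out with an antibody against V5 on 300000 cells per sample, which releases the DNA next to the tagged protein for sequencing.

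The authors deposited 1 peak list per construct, with 24212 iBRG1 peaks and 25371 i∆HSA peaks. There was thus no value per replicate, no replicate error and no read depth, and the intervals below cover counting error only. Each peak came with a whole-number score of unstated scale, used here to rank peaks within a list. Cells without doxycycline were not analysed here, and peaks do not measure expression, so the identity of the cells was not checked against marker genes. All positions are on hg19 (GRCh37), and gene models are those of GENCODE release 44 mapped to that build.

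Several stretches of sequence under peaks at the subunit genes are shown first, from some of the sites at which iBRG1 and i∆HSA met. Each lies in the bases common to an iBRG1 and an i∆HSA peak, outside promoters, and the capitals mark the letters TGAGTCA of the AP-1 motif, to which FOS and JUN proteins bind, read on either strand (TGACTCA on the other). The stretches shown were picked for these letters, which the common bases of pairs at SMARCC1, BCL11A and BRD9 also held. The strand printed is the plus strand. They come from intron 3 of PBRM1 (chr3:52705012-52705078), intron 5 of ARID1B (chr6:157429084-157429150) and 2 neighbouring places just past the 3′ end of DPF3 (chr14:73075159-73075225 and chr14:73075236-73075302).
PBRM1 intron 3: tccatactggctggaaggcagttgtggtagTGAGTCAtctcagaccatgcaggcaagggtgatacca
ARID1B intron 5: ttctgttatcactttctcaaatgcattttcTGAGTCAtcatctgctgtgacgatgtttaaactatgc
DPF3 downstream, first: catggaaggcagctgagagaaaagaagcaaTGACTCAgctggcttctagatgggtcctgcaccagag
DPF3 downstream, second: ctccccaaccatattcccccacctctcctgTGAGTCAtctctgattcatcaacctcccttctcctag
Counted over the central 200 bp of the common bases, the AP-1 letters occurred in 2 of 17 shared pairs at the subunit genes and in 16.2% of the 4979 shared pairs genome-wide. Both were in pairs at SMARCC1 and DPF3, and the PBRM1 and ARID1B letters lay 404 bp and 199 bp from the midpoint of the common bases. The letters GGAATG, the core of the TEAD motif, also occurred in 2 of 17 pairs, beside 13.8% of all pairs.

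Another kind of sequence under the peaks was that before the start of the gene. The 150 bases ahead of the outermost annotated start are given on the strand of the gene for ACTL6A (chr3:179280524-179280673, plus strand) and DPF3 (chr14:73360810-73360959, minus strand), which were covered by an i∆HSA peak only, and for SMARCD2 (chr17:61920426-61920575, minus strand), which was covered by a peak of each list. Capitals mark GGGCGG, the letters of the SP/KLF motif (CCGCCC on the other strand). These 3 were chosen after their peaks were seen, and all 3 hold the motif. The same bases of SMARCD1, SMARCD3, ARID1B, PBRM1, ACTB and BCL7C also lay under a peak and did not hold it.
ACTL6A upstream: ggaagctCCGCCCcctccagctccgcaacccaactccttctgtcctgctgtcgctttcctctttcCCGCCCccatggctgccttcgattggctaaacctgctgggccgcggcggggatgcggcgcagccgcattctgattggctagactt
DPF3 upstream: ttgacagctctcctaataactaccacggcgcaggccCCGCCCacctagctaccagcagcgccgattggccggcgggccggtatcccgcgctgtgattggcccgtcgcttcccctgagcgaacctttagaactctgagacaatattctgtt
SMARCD2 upstream: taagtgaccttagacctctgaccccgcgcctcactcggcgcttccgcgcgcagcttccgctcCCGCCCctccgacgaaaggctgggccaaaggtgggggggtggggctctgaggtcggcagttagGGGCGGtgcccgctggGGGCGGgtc
The motif occurred in the same 150 bases of 10 of the 30 subunit genes and of 43.1% of all protein-coding genes. The window of ACTL6A held 11 CpG dinucleotides, that of DPF3 held 13 and that of SMARCD2 held 15, beside a median of 12 over the 30 genes and 9 over all protein-coding genes. All 30 subunit genes had a CpG-rich canonical start, a class that takes in 56% of all protein-coding genes.

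To ask which subunit genes were occupied, genes with at least 1 peak were counted. An iBRG1 peak was present at 18 of 30 genes (60%, 95% Wilson interval 42.3 to 75.4%), beside 44% of all protein-coding genes. An i∆HSA peak was present at 23 of 30 (76.7%, 59.1 to 88.2%), beside 49.1% of all protein-coding genes. A long gene collects more peaks, and the subunit genes had a median length of 46.9 kb. Each was therefore set beside the 200 protein-coding genes nearest to it in length. The same number of such genes would have given 16.04 with an iBRG1 peak and 17.9 with an i∆HSA peak. Both of these lie inside the intervals, the i∆HSA value only just. The i∆HSA share of all protein-coding genes lies below its interval. With peaks of score 5 or more, 7 genes had an iBRG1 peak and 14 an i∆HSA peak, beside 18.1% and 28.2% of all protein-coding genes. The study's methods name 5 as a minimum score, but whether on this scale is not stated. The cut kept 27.16% of the iBRG1 list and 41.15% of the i∆HSA list.

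Both constructs were found at 17 of the 30 genes, beside 30% of all protein-coding genes and 11.7 of 30 genes of like length. With peaks of score 5 or more they were found at 5 genes, beside 11% of all protein-coding genes. Over all peaks, SS18L1 was the only subunit gene with an iBRG1 peak alone, beside 14.1% of all protein-coding genes and 4.39 of 30 genes of like length. SMARCD1, BCL11B, ARID2, ACTL6A, BCL7B and BCL7C (20%) had an i∆HSA peak alone, beside 19.1% of all protein-coding genes and 6.20 of 30 genes of like length. No peak of either list was found at SMARCB1, SMARCE1, DPF1, DPF2, PHF10 and ACTL6B (20%), beside 36.9% of all protein-coding genes and 7.77 of 30 genes of like length. These 6 run from 13.4 kb for ACTL6B to 51.1 kb for SMARCB1.

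**Figure D1:**
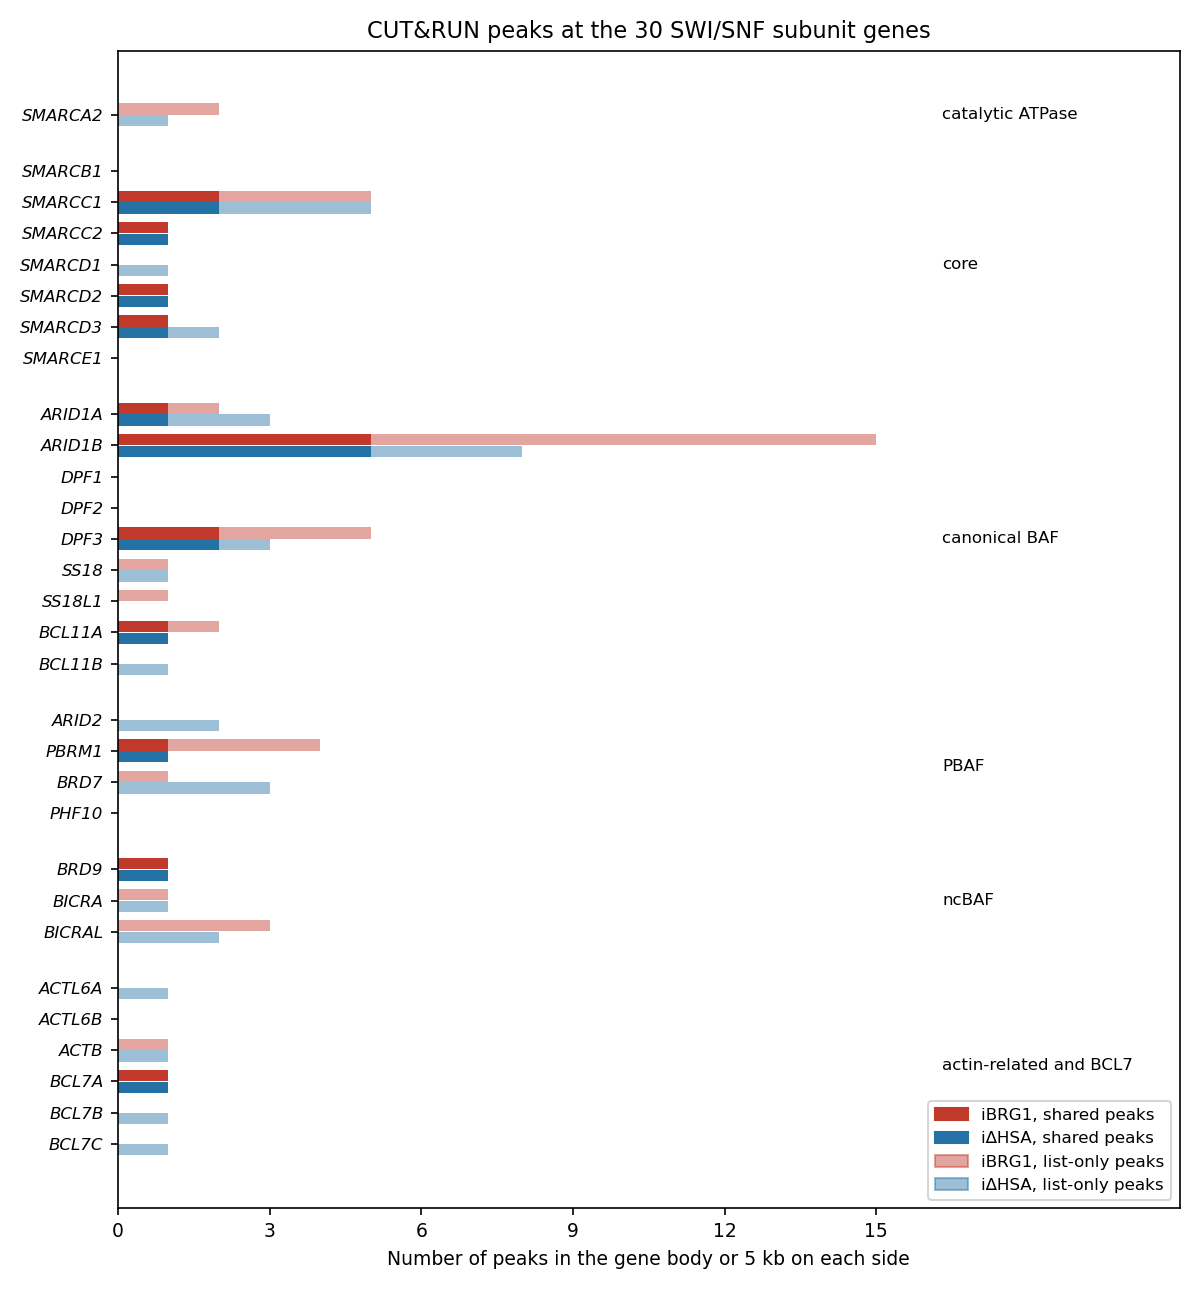
Number of iBRG1 (red) and i∆HSA (blue) peaks in the body or 5 kb on each side of each of the 30 subunit genes, grouped by the part of the complex they encode. Dark bars are peaks that overlap a peak of the other list and pale bars are peaks of 1 list alone. ARID1B, the longest of the genes, has the most with 15 and 8 peaks, and 6 genes have none.

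The peaks were spread very unevenly. The 30 genes held 48 iBRG1 peaks and 43 i∆HSA peaks, where genes of like length would have held 32.3 and 34.9. ARID1B alone held 31.2% of the iBRG1 and 18.6% of the i∆HSA peaks. By length, the 10 genes under 30 kb held 2 iBRG1 and 5 i∆HSA peaks, the 12 genes of 30 to 100 kb held 13 and 16, and the 8 genes of 100 kb or longer held 33 and 22. The number of peaks was above the mean of genes of like length at 15 genes for iBRG1 and 16 for i∆HSA. Where that mean is low, as at SMARCD2 (0.265 for iBRG1), a single peak is enough to exceed it. These numbers thus partly repeat which genes had a peak, and the same share over all genes was not counted. The number of peaks was above the 95th percentile of genes of like length at ARID1B for iBRG1, and at no gene for i∆HSA. Up to 5% of genes of like length lie above such a percentile, so 1 of 30 genes is within that share.

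**Figure D2:**
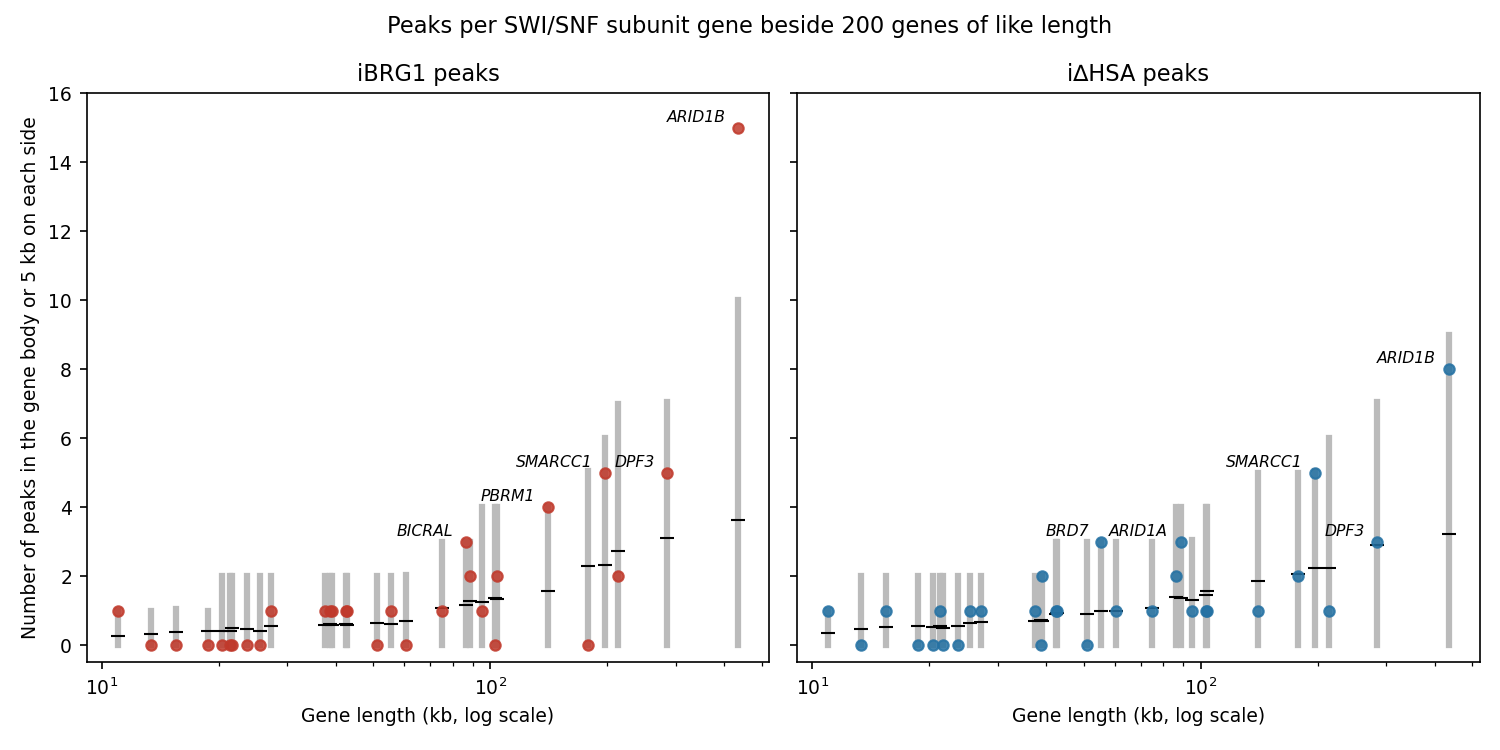
Number of peaks (vertical axis) against gene length in kb (log scale) for the 30 subunit genes, with iBRG1 on the left and i∆HSA on the right. Grey bars run from the 5th to the 95th percentile of the 200 protein-coding genes nearest in length and black ticks are their means; ARID1B at 15 iBRG1 peaks is the single point above its bar.

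The number of peaks per gene was then compared between the constructs with a two-sided exact binomial test against the iBRG1 share of both lists, 48.8%. Of 12730 protein-coding genes with a peak, 0% passed an adjusted p of 0.05 by the Benjamini-Hochberg method, and 0.558% (71 genes) had an unadjusted p under it. None of the 24 subunit genes with a peak passed either threshold. The smallest p-value among them was 0.144 in the exact binomial test, for the 15 and 8 peaks of ARID1B, and its adjusted value was 1. At least 5 peaks are needed before this test can pass an unadjusted 0.05, and 6 of the subunit genes had that many. A difference at the other genes was therefore not detectable. With 5 peaks the smallest p of the exact binomial test is 0.0278, and the threshold adjusted over 12730 genes is stricter. The lack of a call thus does not show equal occupancy, and the counts of the constructs are given side by side below.

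SMARCA2 is the only other ATPase gene of the family and encodes BRM, which SW-13 cells do not express. It is 213 kb long and held 2 iBRG1 peaks and 1 i∆HSA peak, beside 2.73 and 2.24 for genes of like length. None of the peaks overlapped another. The iBRG1 peaks had scores of 0 and 2, and the i∆HSA peak in intron 27 had a score of 2. The first iBRG1 peak was upstream of the canonical start (midpoint at -18.4 kb), within the reach of longer transcripts, and the second (chr9:2076689-2077009) was at an internal start. No peak was found within 1 kb of the canonical SMARCA2 start.

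Among the 7 core subunit genes, 4 had an iBRG1 peak and 5 an i∆HSA peak, beside 3.07 and 3.61 for genes of like length. SMARCC1 and SMARCC2 encode the BAF155 and BAF170 scaffolds. SMARCC1 (196.8 kb) held 5 peaks of each list, beside 2.32 and 2.23 for genes of like length. The iBRG1 scores were 2, 2, 3, 5 and 2 along the chromosome, and the i∆HSA scores were 6, 3, 3, 4 and 3. Of these peaks, 2 of each list met in pairs, at a coding exon (chr3:47702000-47703030 with chr3:47702512-47704167, scores 3 and 6) and in intron 14 (chr3:47726689-47727033 with chr3:47725705-47727002, scores 2 and 3). The most distal iBRG1 peak, 200.4 kb from the start, was also in the promoter of the neighbouring gene CSPG5. No peak was at a start of SMARCC1. SMARCC2 is 27.2 kb long and differed in this respect, since its only iBRG1 peak (chr12:56583555-56583899, score 2) and its only i∆HSA peak (chr12:56583587-56586145, score 4) met at its canonical promoter.

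The SMARCD genes encode BAF60 subunits, which link the complex to transcription factors, and all 3 had an i∆HSA peak at a promoter. At SMARCD2, the shortest of the 30 genes at 10985 bp, an iBRG1 peak (chr17:61919958-61922293, score 2) contained the whole of an i∆HSA peak (chr17:61920178-61922055, score 4), with midpoints 9 bp apart. At SMARCD3 a wide iBRG1 peak of 4728 bp (chr7:150941194-150945921, score 3) met an i∆HSA peak of 714 bp (chr7:150941484-150942197, score 11). A second i∆HSA peak (chr7:150973477-150976089, score 4) was at a start of a longer SMARCD3 transcript, with its midpoint at -29.0 kb from the canonical start. SMARCD1 had a single i∆HSA peak over its canonical start (chr12:50478510-50479507, score 5) and no iBRG1 peak. SMARCB1 and SMARCE1, which encode the BAF47 and BAF57 subunits, had no peak of either list.

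The 9 genes of canonical BAF held the most peaks, 26 of iBRG1 and 17 of i∆HSA, beside 13.3 and 13.4 for genes of like length. ARID1A and ARID1B encode alternative large subunits, of which a complex carries 1. ARID1B (chr6:157097154-157531913, plus strand) is the longest subunit gene at 434.8 kb. Its 15 iBRG1 peaks were more than those of each of the 200 genes of like length, which had a mean of 3.64 and a 95th percentile of 10. Its 8 i∆HSA peaks were more than those of 90% of such genes, which had a mean of 3.23 and a 95th percentile of 9. The other 8 canonical BAF genes held 11 iBRG1 and 9 i∆HSA peaks, beside 9.62 and 10.2 for genes of like length. All 29 subunit genes other than ARID1B held 33 and 35.

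Along ARID1B, 5 pairs of peaks met. The first lay over the canonical promoter (chr6:157095721-157098090 with chr6:157094907-157098443, scores 5 and 6) and the second 4.5 kb into intron 1 (chr6:157101752-157104297 with chr6:157101838-157104167, score 8 in each list). The third was in intron 2 (chr6:157168113-157171320 with chr6:157169134-157172267, scores 4 and 8). The fourth held the AP-1 letters shown for intron 5 (chr6:157427927-157431688 with chr6:157425746-157429909, scores 9 and 6), and its iBRG1 peak reached a coding exon. The last was at an internal start in intron 8 (chr6:157469421-157470775 with chr6:157469390-157470912, scores 2 and 9).

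The strongest peak at ARID1B in each list had no partner in the other. For iBRG1 it was chr6:157149239-157150953, at an internal start 51.6 kb into the gene, with a score of 22 that was above 97.5% of the iBRG1 list and was the highest of the 48 iBRG1 peaks. For i∆HSA it was chr6:157353688-157357300, at another internal start 257.0 kb into the gene, with a score of 13 that was above 86.9% of the i∆HSA list. A further iBRG1 peak of score 1 (chr6:157513357-157513700) also lay at an internal start. The scores of the 15 iBRG1 peaks ran from 1 to 22 and those of the 8 i∆HSA peaks from 4 to 13.

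**Figure D3:**
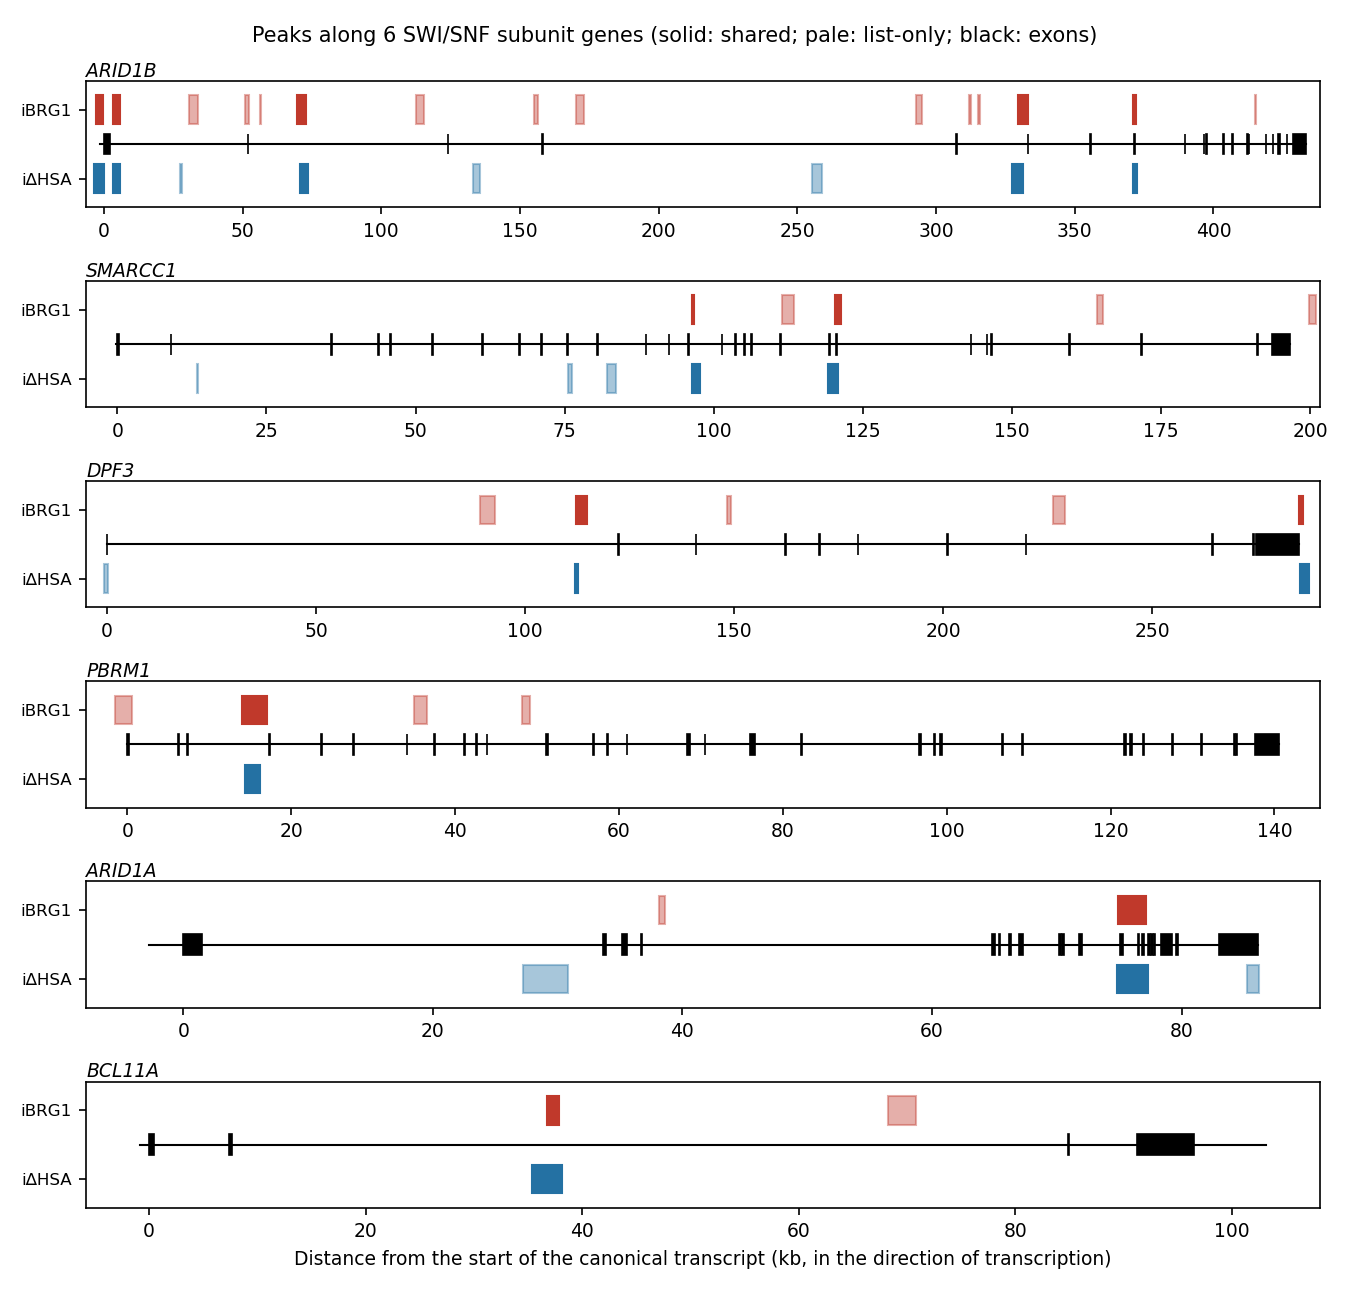
Peaks along 6 subunit genes, with iBRG1 above and i∆HSA below the gene line; the horizontal axis is the distance in kb from the start of the canonical transcript, in the direction of transcription. Solid boxes are shared peaks, pale boxes are peaks of 1 list alone and black marks are exons. At ARID1B no peak of the 5 shared pairs has its midpoint between 72.2 kb and 329.3 kb, and at PBRM1 the single shared pair is 15 kb from the start.

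ARID1A (88.9 kb) held 2 iBRG1 and 3 i∆HSA peaks. One pair met over an internal start near intron 12 (chr1:27097379-27099687 with chr1:27097344-27099823, scores 4 and 7), where the whole iBRG1 peak was contained. The other iBRG1 peak, in intron 4, had a score of 1. An i∆HSA peak (chr1:27049704-27053344, score 4) was at a start within intron 1, and another, with a score of 3, was in the 3′ UTR. The canonical ARID1A start had no peak in either list.

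DPF3, a subunit with PHD fingers that bind modified histone tails, held 5 iBRG1 and 3 i∆HSA peaks over 285.1 kb, beside 3.11 and 2.91 for genes of like length. The iBRG1 scores were 13, 6, 3, 4 and 3, and the i∆HSA scores were 3, 1 and 10. The peak of score 13 (chr14:73074734-73075821), above 92.7% of its list, lay at the 3′ end of the gene and met an i∆HSA peak of score 3 (chr14:73073387-73075569) over the paired AP-1 letters shown above. A second pair met in intron 1 (chr14:73246126-73248772 with chr14:73248240-73248916, scores 4 and 1). The i∆HSA peak of score 10 (chr14:73360581-73361492) was at the canonical promoter, where iBRG1 had none. The related genes DPF1 and DPF2 had no peak, and at 18.7 and 20.4 kb they are far shorter.

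SS18 and SS18L1 encode the alternative subunits that bind the ATPase in BAF. SS18 held 1 peak of each list, of scores 1 and 5, which did not meet. SS18L1 held 1 iBRG1 peak of score 1 in intron 8. BCL11A and BCL11B encode zinc-finger proteins that join the complex in blood and neural cells. BCL11A held a strong shared pair in intron 2, with an iBRG1 score of 19, above 96.4% of its list, and an i∆HSA score of 8, and a further iBRG1 peak of score 2 at an internal start. BCL11B held a single i∆HSA peak in intron 3 (chr14:99683190-99685452) with a score of 16, above 89.7% of its list, and no iBRG1 peak.

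The 4 PBAF genes held 5 iBRG1 and 6 i∆HSA peaks, beside 4.99 and 5.42 for genes of like length. PBRM1 encodes the polybromo subunit, whose bromodomains bind acetylated histones. It held 4 iBRG1 peaks, of scores 1, 1, 10 and 6, and 1 i∆HSA peak of score 6, and the exact binomial p for the counts was 0.208. The peak of score 10 in intron 3 (chr3:52702929-52705898) contained the i∆HSA peak (chr3:52703726-52705557), and their common bases held the AP-1 letters shown first. The iBRG1 peak of score 6 (chr3:52719299-52721445) lay over the PBRM1 start, which it shares with the start of the divergent gene GNL3, so that the peak cannot be given to either gene.

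BRD7, another bromodomain subunit of PBAF, held 1 iBRG1 peak of score 2 and 3 i∆HSA peaks, each of score 3. The i∆HSA peaks were at the canonical promoter (chr16:50403297-50404658), at an internal start (chr16:50396437-50397002) and in intron 8, and none met the iBRG1 peak. ARID2, the large DNA-binding subunit of PBAF, held 2 i∆HSA peaks of scores 2 and 3 in introns 15 and 20. It had no iBRG1 peak over 178.3 kb, where genes of like length had a mean of 2.31. PHF10 had no peak.

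All 3 ncBAF genes had a peak of each list, where 3 genes of like length would have given 1.76 with an iBRG1 and 2.01 with an i∆HSA peak. BRD9 encodes the bromodomain subunit that marks ncBAF. Its pair (chr5:853588-858841 with chr5:853561-857863, scores 3 and 2) lay past the end of the canonical BRD9 transcript and inside the body of the neighbouring gene ZDHHC11, and the iBRG1 peak was also at a ZDHHC11 promoter. BICRA and BICRAL encode the paralogous GLTSCR1 subunits. BICRA had an iBRG1 peak of score 9 at its canonical promoter (chr19:48111344-48111991) and an i∆HSA peak of score 2 in intron 1. BICRAL had 3 iBRG1 peaks, the highest of which was in intron 1 (chr6:42767593-42770244, score 13) and another at an internal start (chr6:42789307-42789898, score 2), and 2 i∆HSA peaks of score 4. No pair met at BICRA or BICRAL.

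The genes of the actin-related and BCL7 proteins, which are the partners of the HSA domain, had an iBRG1 peak at 2 of 6 and an i∆HSA peak at 5 of 6, beside 2.33 and 3.06 for genes of like length. With 2 iBRG1 and 5 i∆HSA peaks between them, no gene of the group had more than 1 peak of a list, so the exact binomial test could not separate the constructs at any of them. ACTL6A had the highest-scoring i∆HSA peak of all 30 genes (chr3:179278319-179281407, score 21, above 92.6% of the list), which covered its canonical start and the upstream sequence shown above, and it had no iBRG1 peak. ACTL6B, its neuronal paralogue, had no peak. ACTB had 1 peak of each list (iBRG1 at chr7:5601546-5604164, score 3, at the start of a longer transcript, and i∆HSA with a score of 7), but their midpoints were at -32.6 kb and -21.04 kb from the canonical start. ACTB also has processed pseudogenes, and how reads matching several places were placed was not stated.

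Of the BCL7 genes, BCL7A had a pair in intron 3 (chr12:122477040-122477906 with chr12:122477008-122479806, scores 1 and 5), in which the i∆HSA peak contained the iBRG1 peak. BCL7B had 1 i∆HSA peak at an internal start (chr7:72952747-72953387, score 3). BCL7C had 1 i∆HSA peak of 4606 bp at its canonical promoter (chr16:30905600-30910205, score 5), which reached the promoter of the neighbouring gene CTF1.

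To ask whether the constructs met at the promoters, peaks within 1 kb of any annotated start were counted. An iBRG1 promoter peak was present at 11 of 30 genes (36.7%, 95% Wilson interval 21.9 to 54.5%), beside 18.2% of all protein-coding genes and 6.43 of 30 genes of like length. An i∆HSA promoter peak was present at 11 genes (the same share and interval), beside 20.9% of all protein-coding genes and 6.99 of 30 genes of like length. CpG-rich starts had more peaks, and among all genes with such a start the shares were 23.6% for iBRG1 and 25.9% for i∆HSA. These shares, which were not matched for length, lie inside the interval of the subunit genes. Both shares of all protein-coding genes lie below it, as does the iBRG1 number for genes of like length. SMARCC2, SMARCD2, SMARCD3, ARID1A and ARID1B, 5 of 30, had a promoter peak of each list, beside 7.69% of all protein-coding genes and 2.62 of 30 genes of like length. With peaks of score 5 or more, a promoter peak was present at 3 subunit genes for iBRG1 and 7 for i∆HSA, beside 6.67% and 11.8% of all protein-coding genes.

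Many of these promoters were internal starts. With the canonical start alone, a peak was present at 6 genes for iBRG1 (20%, 9.51 to 37.3%) and at 8 for i∆HSA (26.7%, 14.2 to 44.4%), beside 11.8% and 14.3% of all protein-coding genes and 15.7% and 18.3% of those with a CpG-rich start. The iBRG1 genes were SMARCC2, SMARCD2, SMARCD3, ARID1B, PBRM1 and BICRA. The i∆HSA genes were SMARCC2, SMARCD1, SMARCD2, ARID1B, DPF3, BRD7, ACTL6A and BCL7C. SMARCC2, SMARCD2 and ARID1B, 3 of 30, were on both lists, as were 5.78% of all genes with a CpG-rich start.

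Away from the starts, most peaks were intronic. Of the 48 iBRG1 peaks, 26 (54.2%) were in an intron and touched no promoter or exon of the same gene, 5 overlapped a coding exon and 14 were at a promoter. Of the 43 i∆HSA peaks, 23 (53.5%) were in an intron, 1 overlapped a coding exon and 16 were at a promoter. An end within 5 bp of an exon edge was seen at 2 of the 91 peaks, 1 of SMARCC1 and 1 of BICRAL. The first intron held the midpoint of 7 iBRG1 and 5 i∆HSA peaks. The same shares over the peaks of all protein-coding genes were not counted, so these places cannot be called particular to the subunit genes.

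The places at which the peaks met were the last question. Among the 17 genes with a peak of each list, 11 had a shared pair, beside 53.9% of the 6039 protein-coding genes with a peak of each list. SMARCA2, SS18, BRD7, BICRA, BICRAL and ACTB had peaks of both lists that did not meet. Of the 48 iBRG1 peaks, 17 (35.4%, 95% Wilson interval 23.4 to 49.6%) met an i∆HSA peak, beside 22.4% of iBRG1 peaks at all protein-coding genes. Of the 43 i∆HSA peaks, 17 (39.5%, 26.4 to 54.4%) met an iBRG1 peak, beside 21.5%.

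These shares depended on the overlap asked for. ARID1B held 5 of the 17 pairs, and without it the shares were 36.4% (22.2 to 53.4%) and 34.3% (20.8 to 50.9%), with fewer peaks and intervals that reached the shares of all genes. With a reciprocal overlap of 50%, the shares were 16.7% and 18.6%, beside 13.5% and 13% at all protein-coding genes. With peaks of score 5 or more, the iBRG1 share was 41.7% (12 peaks) and the i∆HSA share 25% (20 peaks), beside 35.4% and 23.8%. The median width at the subunit genes was 1644 bp for iBRG1 and 1656 bp for i∆HSA, beside 1418 bp and 1381 bp at all protein-coding genes, but without ARID1B it was 1221 bp and 1509 bp. Among peaks of 1500 bp or more, 10 of 25 (40%) were shared for iBRG1 and 14 of 25 (56%) for i∆HSA, beside 31.2% and 32.4% at all protein-coding genes.

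**Figure D4:**
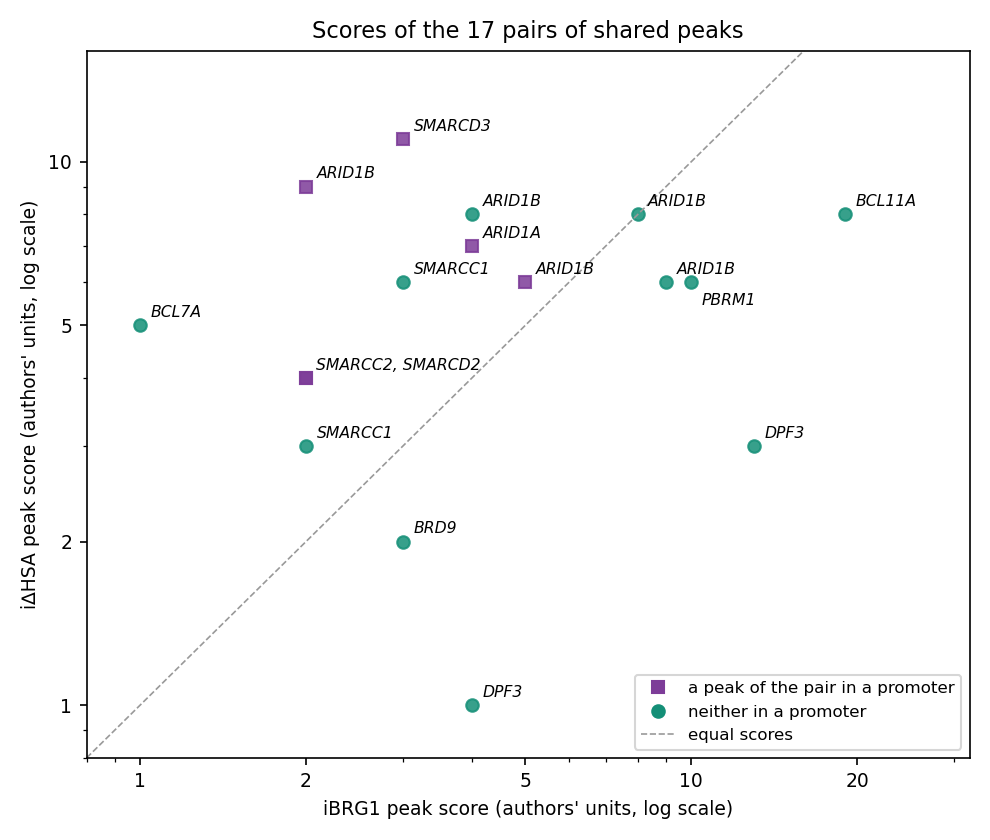
Scores of the 17 pairs of shared peaks, with the iBRG1 score on the horizontal and the i∆HSA score on the vertical axis (both log scales, in the authors' units). Squares are pairs with a peak in a promoter and circles the other pairs; the dashed line marks equal scores, which need not be equal strength since the lists differ in scale, and the 6 promoter pairs lie above it.

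Shared peaks scored higher than peaks of 1 list alone in these data, with medians of 4 (n = 17) against 2 (n = 31) for iBRG1 and 6 (n = 17) against 4 (n = 26) for i∆HSA. The ranges overlapped widely, from 1 to 19 against 0 to 22 and from 1 to 11 against 2 to 21, and shared peaks were also wider (medians of 2336 and 2330 bp against 1225 and 1052.5 bp). Over all their peaks, the subunit genes had a median iBRG1 score of 3 and a median i∆HSA score of 4, the same as at all protein-coding genes. The i∆HSA score was the higher in 10 of the 17 pairs, but by its rank within its own list it was the higher in 8.

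The genes of other remodeler families were set beside those of SWI/SNF. Of 13 ISWI genes, 10 had an iBRG1 peak (76.9%) and 10 an i∆HSA peak, beside 7.58 and 7.97 for genes of like length. Of 19 CHD/NuRD genes the numbers were 15 (78.9%) and 13 (68.4%), beside 11.8 and 12.2, and of 26 genes of the INO80, SRCAP and TIP60 complexes they were 16 (61.5%) and 17 (65.4%), beside 12.3 and 13.8. All of these families were above genes of like length, as SWI/SNF genes were, and no difference between families was tested. Shared pairs were at 38.5% of ISWI, 26.3% of CHD/NuRD and 11.5% of INO80, SRCAP and TIP60 genes (5, 5 and 3 genes, where genes of like length would have given 2.86, 4.41 and 4.43). At SWI/SNF genes the share was 36.7% (11 genes, 5.75 of like length), and at all protein-coding genes it was 16.1%. The 2 genes with most peaks in each family were BPTF (5 iBRG1 and 7 i∆HSA peaks) with BAZ1A (1 and 3), BAZ2B (2 and 2) and RSF1 (1 and 3) tied behind it, MTA3 (3 and 11) with CHD9 (5 and 3), and EPC2 (4 and 2) with SRCAP (2 and 3).

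**Figure D5:**
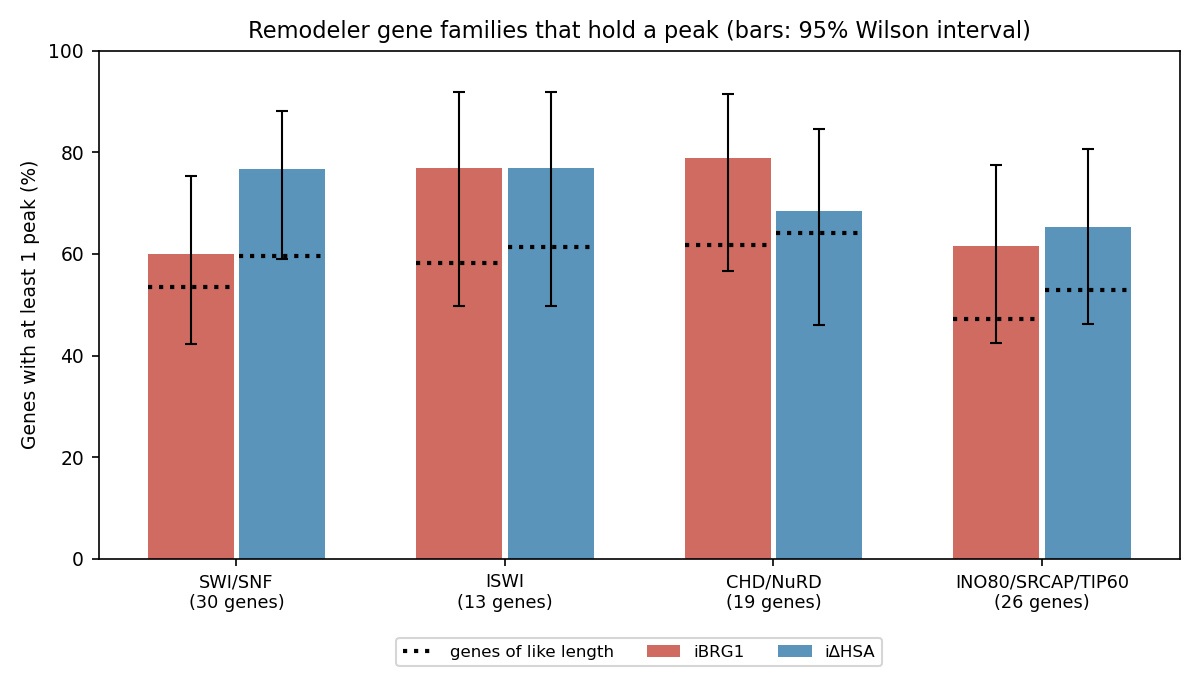
Share of genes with at least 1 iBRG1 (red) or i∆HSA (blue) peak in the gene body or 5 kb on each side, in percent, for SWI/SNF and 3 other remodeler families. Error bars are 95% Wilson intervals and dotted lines are the shares of protein-coding genes of like length; every bar is above its dotted line and every interval is wide, as with 60% (42.3 to 75.4%) for iBRG1 at SWI/SNF genes.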

How the data were processed

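CUT&RUN peaks of V5-tagged iBRG1 and i∆HSA were analysed in SW-13 cells (2 samples each, grouped by their titles). Per the study's methods and the submitters' processing notes, the authors used cutadapt, Bowtie2, Picard, SAMtools and MACS2 2.2, with hg19 as the build, and removed peaks of negative controls and below a minimum score. The deposited scores start at 0 (iBRG1) and 1 (i∆HSA), so it is unclear whether that minimum was applied to them. For each construct the paper reports fewer peaks than the deposited list holds, so these lists may not be its final peak sets. The deposited peak positions and scores are the authors' values, 1 list per construct. Whether replicates were pooled and the scale of the score are not stated. The study's methods give a target for sequencing but the lists carry no reads, so the precision given is that of counting alone. No peak ended past a GRCh37 chromosome. Neither vehicle-treated cells nor negative controls were analysed. The number of columns of per-sample values not used was 0.

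Python 3.11.15 with numpy 2.4.6, scipy 1.17.1 and matplotlib 3.10.9 was used. Positions are 1-based. A peak was assigned to each gene whose body, or the 5 kb on each side, it overlapped by at least 1 bp, and peaks were shared when they overlapped by at least 1 bp. A promoter was 1 kb on each side of any transcript start. A CpG-rich start had at least 55% GC and an observed-to-expected CpG ratio of at least 0.65 in the 500 bp on each side. Genes of like length were the 200 protein-coding genes nearest in length. Numbers of peaks were compared between the lists for all protein-coding genes with a peak by two-sided exact binomial tests with Benjamini-Hochberg adjustment, a procedure tested on simulated data. The letters of the AP-1 and TEAD motifs, and of ETS (CCGGAA), SP/KLF (GGGCGG), NRF1 (GCATGCGC) and CRE (TGACGTCA), were searched on both strands in the central 200 bp. None of the last 4 occurred at the centres of the 17 shared pairs of the subunit genes.

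Named genes were all 30 subunit genes, with positions for shared pairs, promoter peaks and the 5 highest-scoring peaks of each list (positions at BCL11A are not reported here), and the 2 genes with most peaks of each comparison family. The members and lists were chosen with earlier results of these data known. Alternatives changed the score minimum, gene window, promoter width, starts and overlap.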

Additional observations from a re-analysis of the deposited data

How the results depend on the processing

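Of the results recomputed under the alternatives, 67 values stayed within 1.5 times the reported count or within the interval of the reported share, and 13 moved beyond it. A score of at least 5 moved most of them. It left 12 iBRG1 and 20 i∆HSA peaks, with medians of 9 and 7, at 7 and 14 subunit genes (6.76 and 10.4 for genes of like length). Peaks of both lists were then at 5 subunit genes, beside 11% of all protein-coding genes. Promoter peaks then remained at 3 genes for iBRG1 and 7 for i∆HSA, and 25% of the i∆HSA peaks were shared, beside 23.8% at all protein-coding genes. With 50% reciprocal overlap the shared shares were 16.67% for iBRG1 and 18.6% for i∆HSA. With the canonical start alone, 6 genes had an iBRG1 promoter peak. This setting, a window around the canonical transcript, which lost BRD9 and ACTB and gave 16 and 21 genes with a peak, and the counts without ARID1B were chosen after seeing the data. The count of genes that differed between the lists was 0 in each setting tried, and these values are among those that stayed. Settings that leave fewer peaks per gene could hardly raise it, so it says little about stability. No paired analysis was possible because the peaks carry no replicate number (a single list per construct), and for that reason no replicate could be left out. The depth reached is unknown, so a missing peak does not show an empty site.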
